A study of Mus musculus with 8 samples.

Results

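The genes described here make, hold, bind and break down the aggregates of proteoglycan and hyaluronan in the intervertebral disc, together with lubricin. They were chosen by name as Acan, Vcan, Hapln1, Has1, Has2, Has3, Hyal1, Hyal2, Cd44 and Prg4, with earlier results of these data known. Each was read from 1 probe set that the array annotation gives to a single gene. This found 9 of the 10 genes among 22180 genes in all, since both probe sets that name Hyal1 (2) also name a neighbouring gene and were not used. Of the 9 genes, 8 had a mean level above the filter on low values (the 30th percentile of gene means, 6.21 on the log2 scale) and were tested, and Has3, at 6.18, lay just under it.

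The tissue was the annulus fibrosus of thoracic discs, the fibrous ring around the disc core, from Black 6 mice, and its RNA was measured on 8 Affymetrix arrays. The 4 groups of 2 arrays each were WT at 2 months, ENT1-null at 2 months, WT at 6 months and ENT1-null at 6 months, named below by age and genotype. ENT1-null mice lacked exons 2 to 4 of Slc29a1, whose product ENT1 carries adenosine and related nucleosides across the cell membrane. No Cre or tissue limit of the deletion is named in the labels. Each array held a pool of 5 to 6 annulus tissues, and no label says whether pools within a group used different mice, so that p-values measure the spread between pools, which may be technical.

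Aggrecan is the large chondroitin sulfate proteoglycan that draws water into cartilage and disc. Its N-terminal domain binds hyaluronan, a long unsulfated sugar chain, and link protein locks that bond, so that many aggrecan molecules sit on a single chain. Hyaluronan is spun out through the cell membrane by the HAS synthases from UDP-sugars, is held at the cell surface by CD44, and is cut by hyaluronidases. Lubricin coats the gliding surfaces of joints, tendons and the layers of the annulus.

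The level of Slc29a1 checks the genotype of each array. It lay between 10.34 and 10.71 (log2) on the 4 WT arrays and between 8.80 and 9.36 on the 4 ENT1-null arrays, without overlap, and fell by 1.41 ± 0.09 at 2 months (limma adjusted p = 0.00724) and by 1.53 ± 0.09 at 6 months (limma adjusted p = 0.000354). All 15 chondrocyte markers and all 11 markers of outer annulus and tendon had mean levels above the filter. Of the 8 notochord and nucleus pulposus markers measured, 6 lay above it, and Shh and Noto lay below. The mean level of the 8 ran from 8.20 to 8.91 over the arrays. Markers of blood-forming cells were also present and moved with genotype: the mean level of 18 neutrophil genes was 8.52 to 9.92 on the WT arrays, 10.57 and 10.88 in 2 month ENT1-null and 11.65 and 11.61 in 6 month ENT1-null. In bulk tissue, fewer cells of a type and less RNA per cell cannot be told apart.

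At 6 months the annulus of ENT1-null mice had lower levels of both proteoglycan core proteins, of link protein, of Has1 and Has2 and of lubricin, and a higher level of Cd44. Of the 8 tested genes 6 fell, 1 rose, and Hyal2 did not pass (limma, adjusted p below 0.05). Over all 15526 genes tested, 38.8% were called, 17.6% as lower and 21.2% as higher. The median difference of the 8 genes was −0.72 (log2), and that of all genes tested −0.03. The fall was at least 2-fold in Has2, Vcan and Hapln1 (3 of 8), while 8.71% of all genes were called with at least that fold in either direction. In all 8 genes the ENT1-null arrays lay beyond the WT arrays at 6 months, as they did in 72.3% of all genes. An unadjusted p below 0.05 was found in 7 of the 8 and in 48.4% of all genes.

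**Figure D1:**
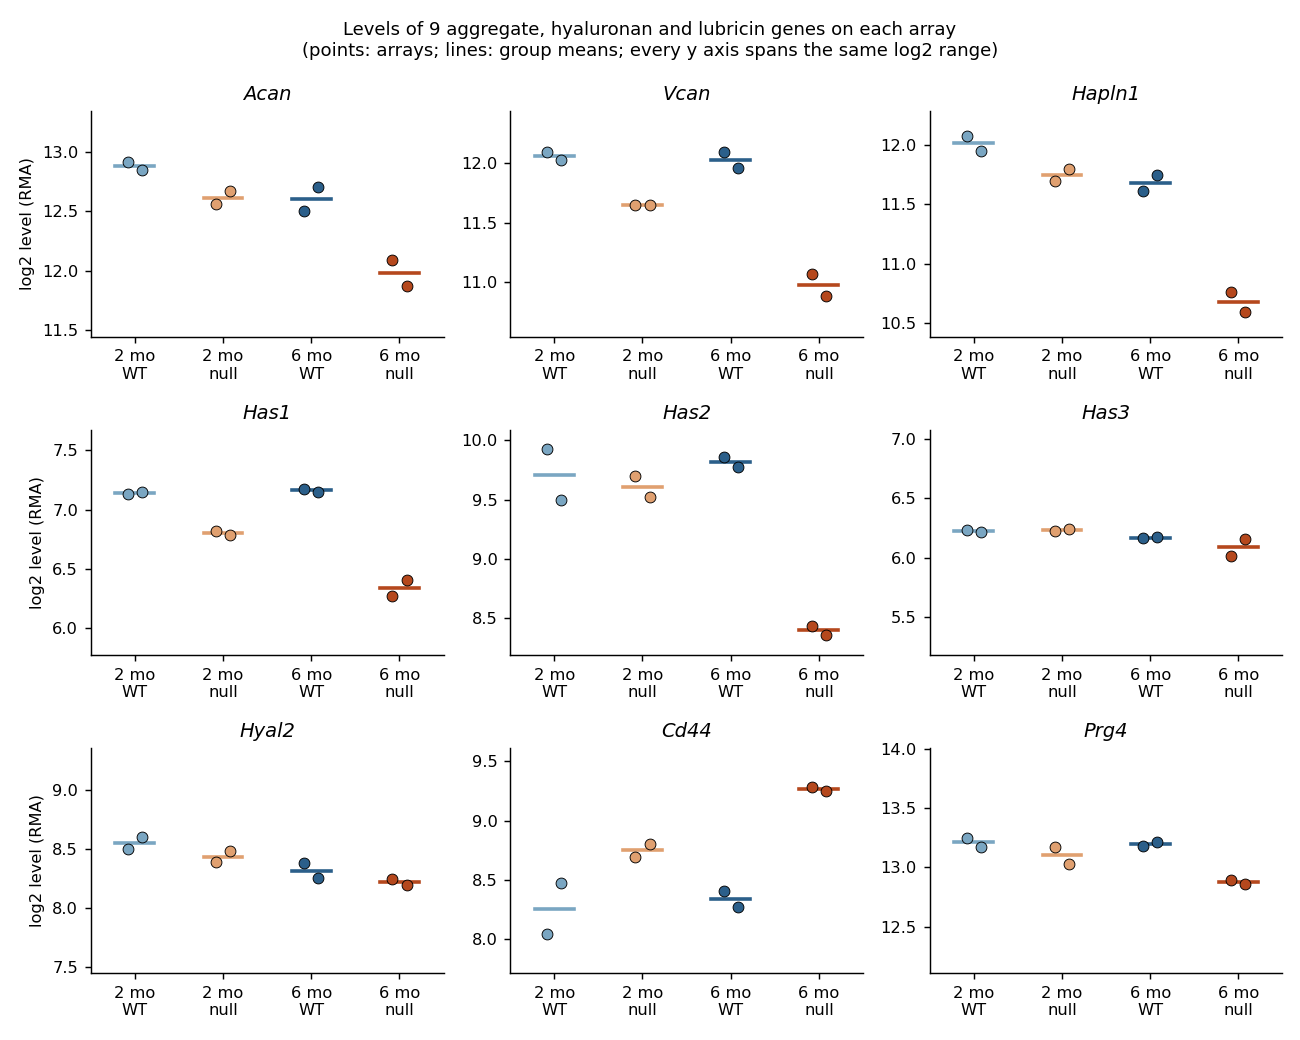
Level (log2, RMA) of the 9 measured genes on each array, by age and genotype; points are single arrays, lines are means of 2 arrays, and every vertical axis spans the same log2 range. Acan, Vcan, Hapln1, Has1, Has2 and Prg4 are lowest and Cd44 is highest in 6 month ENT1-null, while at 6 months the genotype means of Has3 and Hyal2 lie closest together.

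**Figure D2:**
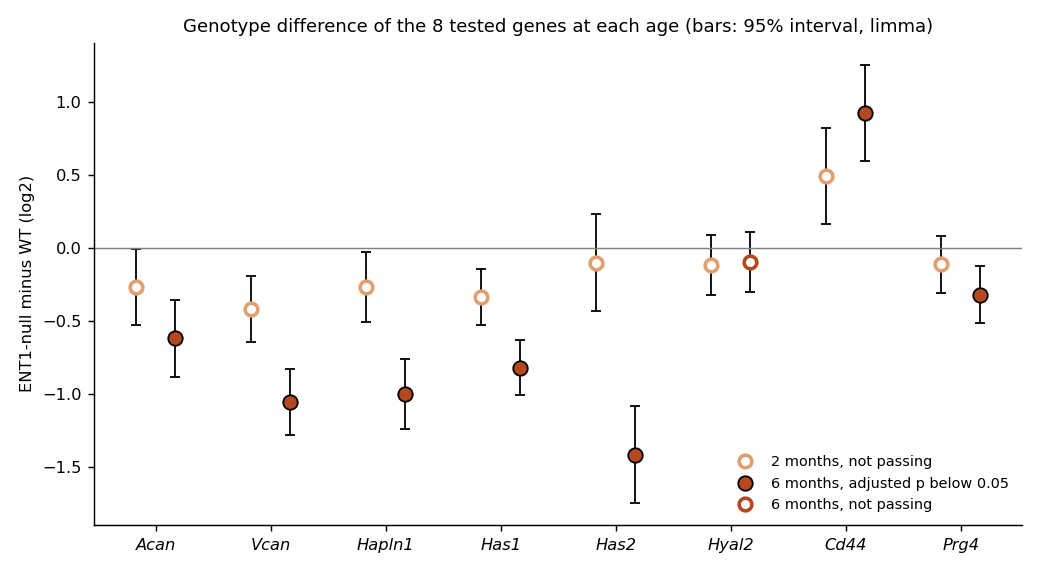
Difference between ENT1-null and WT (log2, vertical axis) of the 8 tested genes at 2 and 6 months; points are limma estimates from 2 against 2 arrays and bars their 95% intervals. At 6 months 7 genes passed the test (filled), with Has2 lowest at −1.42 and Cd44 highest at 0.93; at 2 months none passed (open).

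Acan encodes aggrecan. Its level was 12.92 and 12.85 in 2 month WT, 12.56 and 12.67 in 2 month ENT1-null, 12.50 and 12.71 in 6 month WT, and 12.09 and 11.87 in 6 month ENT1-null. The 2 month WT arrays were highest, the 6 month ENT1-null arrays were lowest, and the other two groups, which overlapped, lay between them. At 6 months Acan fell by 0.62 ± 0.11 (SE, n = 2 and 2, limma adjusted p = 0.00414), a 1.54-fold decrease. At 2 months the difference was −0.27 ± 0.11 (limma adjusted p = 0.252), with a 95% interval of −0.53 to −0.01 before adjustment for the number of genes. Leaving out any 1 array kept the 6 month call, with differences between −0.73 and −0.51.

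Vcan encodes versican, a relative of aggrecan with the same type of hyaluronan-binding domain, common in fibrous and developing tissue. Its level was 12.10 and 12.03 in 2 month WT, 11.65 and 11.65 in 2 month ENT1-null, 12.10 and 11.96 in 6 month WT, and 11.07 and 10.88 in 6 month ENT1-null. The WT groups of both ages overlapped, and the ENT1-null arrays lay below all WT arrays at either age. Vcan fell by 1.05 ± 0.10 at 6 months (limma adjusted p = 0.000435), a 2.08-fold decrease, and gave −0.42 ± 0.10 at 2 months (limma adjusted p = 0.0823). Of the 15526 genes 280 had a lower difference than Vcan at 6 months.

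Hapln1 encodes link protein 1, which joins hyaluronan to aggrecan and versican. Its level was 12.08 and 11.95 in 2 month WT, 11.70 and 11.80 in 2 month ENT1-null, 11.61 and 11.75 in 6 month WT, and 10.76 and 10.59 in 6 month ENT1-null. As with Acan, the 2 middle groups overlapped, and the 6 month ENT1-null arrays lay far below the rest. Hapln1 fell by 1.00 ± 0.10 at 6 months (limma adjusted p = 0.000523), a 2.00-fold decrease, and gave −0.27 ± 0.10 at 2 months (limma adjusted p = 0.218).

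Link protein genes lie next to proteoglycan core genes on mouse chromosomes. In the RefSeq gene table (GRCm38.p6), Hapln1 and Vcan are neighbouring coding genes on chromosome 13, and Acan and Hapln3, a second link protein gene, are neighbours on chromosome 7. Hapln3 was 6.80 and 6.77 in 6 month WT and 6.46 and 6.59 in 6 month ENT1-null. It fell by 0.26 ± 0.08 (limma adjusted p = 0.0401), against 0.62 for its neighbour Acan. That call ended in 13 of its alternatives, among them the exclusion of either 6 month WT array (−0.25 and −0.28), of replicate 1 of 6 month ENT1-null (−0.20), or of any 2 month array (−0.26).

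The RefSeq promoter table (GRCm38.p6) held 7 of the 10 genes. Shown are the 5 of them that changed at 6 months, Acan, Vcan, Hapln1 and Has1, which fell together, and Cd44, which rose. Has2 and Prg4, which also fell, were not among the 7, so their promoters could not be searched. Each sequence below is the 250 bases before the start site, 5′ to 3′ on the strand of the gene. Capitals mark matches, on either strand, to TATAAA (the TATA box), CCAAT (the CAAT box), GGGCGG (the GC box), TGACTCA (the AP-1 motif), TGACGTCA (the cAMP response element), ACAAAG (a motif of SOX proteins) or AACAAT (a second motif of SOX proteins).
Acan, chr7:79052976-79053225, + strand: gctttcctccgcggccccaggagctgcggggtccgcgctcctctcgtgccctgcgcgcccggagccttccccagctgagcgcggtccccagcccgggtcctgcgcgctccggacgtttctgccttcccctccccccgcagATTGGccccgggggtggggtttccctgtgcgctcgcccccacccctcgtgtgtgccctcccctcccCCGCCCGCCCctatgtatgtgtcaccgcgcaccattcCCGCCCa
Vcan, chr13:89742513-89742762, - strand: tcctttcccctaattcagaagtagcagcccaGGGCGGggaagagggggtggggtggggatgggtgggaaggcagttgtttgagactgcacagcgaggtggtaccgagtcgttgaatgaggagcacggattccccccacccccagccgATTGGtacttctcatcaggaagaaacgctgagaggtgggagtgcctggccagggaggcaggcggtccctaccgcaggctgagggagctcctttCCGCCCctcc
Hapln1, chr13:89540386-89540635, + strand: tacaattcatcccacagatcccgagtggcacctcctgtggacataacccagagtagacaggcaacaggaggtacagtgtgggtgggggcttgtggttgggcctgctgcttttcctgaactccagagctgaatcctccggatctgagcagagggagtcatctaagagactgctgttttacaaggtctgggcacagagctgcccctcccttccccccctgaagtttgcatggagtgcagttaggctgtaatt
Has1, chr17:17855189-17855438, - strand: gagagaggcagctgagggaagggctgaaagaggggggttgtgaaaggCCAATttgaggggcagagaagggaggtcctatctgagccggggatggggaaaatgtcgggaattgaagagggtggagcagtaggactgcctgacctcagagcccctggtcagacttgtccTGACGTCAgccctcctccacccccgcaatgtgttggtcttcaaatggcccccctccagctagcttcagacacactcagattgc
Cd44, chr2:102901666-102901915, - strand: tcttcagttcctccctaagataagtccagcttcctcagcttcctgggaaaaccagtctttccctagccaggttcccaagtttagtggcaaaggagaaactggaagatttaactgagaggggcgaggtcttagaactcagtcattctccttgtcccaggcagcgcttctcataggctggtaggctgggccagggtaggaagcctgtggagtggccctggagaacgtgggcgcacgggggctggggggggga

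The Acan promoter held 3 GGGCGG matches, 2 of them overlapping, and 1 CCAAT match, and that of Vcan held 2 GGGCGG matches and 1 CCAAT match. GGGCGG occurred in 32.7% and CCAAT in 33.8% of the 32851 promoters of the same length. The Has1 promoter held 1 CCAAT match and 1 TGACGTCA match, the latter from base −83 to base −76 before the start site. TGACGTCA occurred in 1.55% of promoters. The motifs with no match in the 5 promoters occurred in 12.4% (TATAAA), 4.46% (TGACTCA), 16.5% (ACAAAG) and 9.42% (AACAAT) of promoters. None of the 7 motifs matched within these bases of Hapln1 or Cd44, and the promoter of Acan was richer in G and C (74.4%) than that of Hapln1 (54.4%), with a median of 52.4% over all promoters. A match is a run of letters only, and binding was not measured.

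Has2 encodes the main hyaluronan synthase of developing skeletal tissue. Its level was 9.92 and 9.50 in 2 month WT, 9.70 and 9.52 in 2 month ENT1-null, 9.86 and 9.77 in 6 month WT, and 8.44 and 8.36 in 6 month ENT1-null. The 2 month WT arrays spanned those of 2 month ENT1-null and 6 month WT, and the 6 month ENT1-null arrays stood alone below them all. Has2 fell by 1.42 ± 0.14 at 6 months (limma adjusted p = 0.000503), a 2.67-fold decrease with a 95% interval of −1.75 to −1.09 (log2), and only 109 of the 15526 genes had a lower difference. The differences of the 15 chondrocyte markers lay between −1.34 and 0.01. Those of the 11 markers of outer annulus and tendon lay between −1.40 and 1.35. The interval of Has2 takes in the lowest value of both lists. At 2 months Has2 gave −0.10 ± 0.14 (limma adjusted p = 0.735), and with replicate 1 of 2 month WT left out that value turned to 0.11.

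Has1 encodes a second synthase, with a low level on these arrays. It was 7.13 and 7.15 in 2 month WT, 6.82 and 6.79 in 2 month ENT1-null, 7.17 and 7.15 in 6 month WT, and 6.27 and 6.41 in 6 month ENT1-null. The WT arrays of both ages were nearly equal, each ENT1-null group lay below them, and the 6 month ENT1-null level was close to the filter level of 6.21. Has1 fell by 0.82 ± 0.08 at 6 months (limma adjusted p = 0.000497) and gave −0.34 ± 0.08 at 2 months (limma adjusted p = 0.0878).

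Has3, the third synthase, was under the filter and was not among the tested genes. Its level was 6.23 and 6.22 in 2 month WT, 6.22 and 6.24 in 2 month ENT1-null, 6.16 and 6.17 in 6 month WT, and 6.02 and 6.16 in 6 month ENT1-null. In a fit of all 22180 genes with no filter it gave −0.08 ± 0.09 at 6 months (limma adjusted p = 0.552). The files hold no detection call, so whether Has3 was above background is not known.

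Hyal2, a hyaluronidase anchored in the cell membrane, did not pass in any comparison. Its level was 8.50 and 8.60 in 2 month WT, 8.39 and 8.48 in 2 month ENT1-null, 8.38 and 8.25 in 6 month WT, and 8.24 and 8.20 in 6 month ENT1-null. All 6 month arrays lay just below all 2 month arrays. The genotype difference at 6 months was −0.09 ± 0.09 (limma adjusted p = 0.431), with a 95% interval of −0.30 to 0.11, so that a fall as large as that of Acan lay outside it. Hyal3, a related gene nearby on chromosome 9, gave 0.11 ± 0.10 (limma adjusted p = 0.443).

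Cd44 encodes the hyaluronan receptor of chondrocytes, fibroblasts and most white blood cells, and was the sole tested gene of the 8 to rise. Its level was 8.04 and 8.47 in 2 month WT, 8.69 and 8.81 in 2 month ENT1-null, 8.41 and 8.27 in 6 month WT, and 9.28 and 9.25 in 6 month ENT1-null. All 4 ENT1-null arrays lay above all 4 WT arrays, and the 6 month ENT1-null arrays were highest. Cd44 rose by 0.93 ± 0.14 at 6 months (limma adjusted p = 0.00195), a 1.90-fold increase, and gave 0.49 ± 0.14 at 2 months (limma adjusted p = 0.121). With replicate 2 of 2 month WT left out the 2 month difference was 0.71 and passed, and with replicate 1 left out it was 0.28.

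Markers of white and red blood cells moved in the same direction as Cd44. At 6 months all 18 neutrophil markers were higher (median 2.56), as were all 5 erythroid markers measured (median 1.92), 10 of 12 macrophage markers (median 1.17), 6 of 8 B cell markers (median 1.16) and 3 of 5 T and NK cell markers (median 1.16). All 7 osteoclast markers tested were higher as well (median 1.26), though Mmp9 is on both the osteoclast and the neutrophil list. Of all genes tested, 21.2% were called higher. The macrophage mean was 7.71 and 7.67 in 6 month WT and 8.58 and 8.75 in 6 month ENT1-null. Within WT, the 2 arrays with the higher neutrophil mean (9.84 at 2 months and 9.92 at 6 months) had Cd44 at 8.47 and 8.41. The 2 with the lower mean (8.61 and 8.52) had Cd44 at 8.04 and 8.27. The part of these cells in the Cd44 difference was not tested.

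Among the cartilage genes, 10 of 15 chondrocyte markers were lower at 6 months and none higher (median −0.82), and their mean level was 10.11 and 10.09 in WT against 9.43 and 9.41 in ENT1-null. The differences of Acan (−0.62) and Prg4 (−0.32) were smaller in size than that median, that of Has1 (−0.82) was close to it, and those of Vcan, Hapln1 and Has2 were larger. Of 11 markers of outer annulus and tendon 4 were lower and 2 higher (median −0.04). Beside these lists, 17.6% of all genes tested were called lower and 21.2% higher. Markers of skeletal muscle, a tissue that borders the disc, differed widely between arrays, from 7.32 to 10.23, and 12 of 14 were lower in 6 month ENT1-null. The part of any of these cell types in the falls was not tested.

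**Figure D3:**
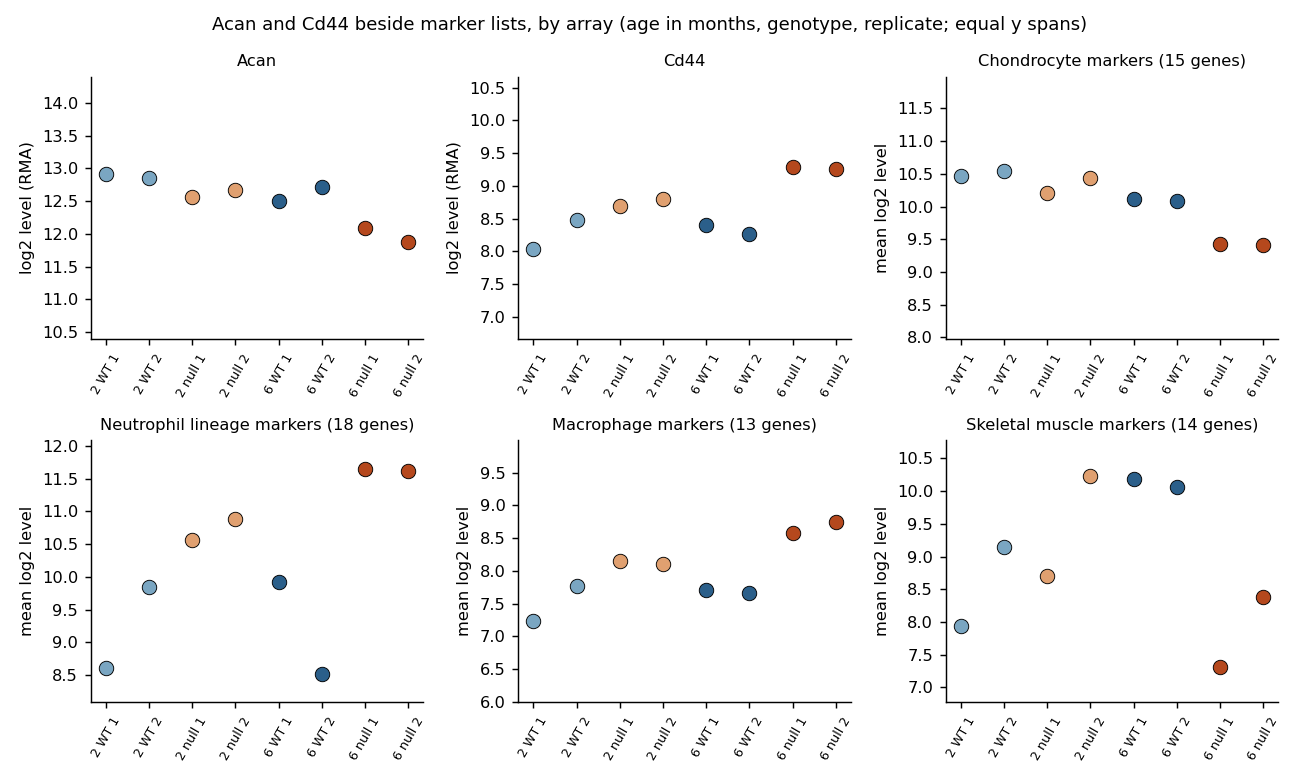
Level of Acan and Cd44 and mean level (log2) of 4 marker lists on each of the 8 arrays, labelled by age in months, genotype and replicate; all vertical axes span the same range. The neutrophil mean is 11.65 and 11.61 in 6 month ENT1-null against 9.92 and 8.52 in 6 month WT, and the muscle mean varies between arrays of one group.

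Prg4 encodes lubricin, the boundary lubricant. Its level was 13.25 and 13.17 in 2 month WT, 13.17 and 13.03 in 2 month ENT1-null, 13.18 and 13.21 in 6 month WT, and 12.89 and 12.86 in 6 month ENT1-null. The 6 month ENT1-null arrays were lowest, and the other arrays lay close together above them. Prg4 fell by 0.32 ± 0.08 at 6 months (limma adjusted p = 0.0199), a 1.25-fold decrease. The value held between −0.34 and −0.30 when single arrays were left out, but the call was lost on dropping either array of 6 month WT (−0.33 for replicate 1 and −0.31 for replicate 2) or either of 6 month ENT1-null (−0.34 and −0.30). Its levels lay close to the highest value on the arrays (13.8).

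None of the 8 genes passed at 2 months (limma), where 0.683% of all genes did (0.296% higher and 0.386% lower). The unadjusted p was below 0.05 in 5 of the 8 (Acan, Vcan, Hapln1, Has1 and Cd44), against 19.4% of all genes. The arrays did not overlap in 7 of 8 genes, against 52.3%. The median difference was −0.19, and −0.04 over all genes. Each gene had a difference at 2 months of the same sign as at 6 months, and in all but Hyal2 of a smaller size.

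The interaction asks whether the genotype difference changed between the ages. It passed in Has2 (−1.32 ± 0.20, limma adjusted p = 0.0383), Hapln1 (−0.74 ± 0.15, limma adjusted p = 0.0429) and Vcan (−0.64 ± 0.14, limma adjusted p = 0.049), where 4.45% of all genes passed and 1.89% passed with a negative value. Has2 alone passed with at least a 2-fold change, as 1.24% of all genes did. With Has1, 4 of the 8 had an unadjusted p below 0.05, against 27% of all genes. In all 3 the genotype difference was more negative at 6 months. These calls rested on every array: with any 1 of the 8 left out, none of the 3 passed. The values then ran from −1.53 to −1.10 for Has2 (replicates 1 and 2 of 2 month WT left out), and from −0.82 to −0.65 for Hapln1 and −0.73 to −0.54 for Vcan (replicates 1 and 2 of 6 month ENT1-null left out). They were also lost with no filter or with all probe sets, and with the replicate block only Has2 was kept. Has1 gave −0.48 ± 0.12 (limma adjusted p = 0.0546), Acan −0.35 ± 0.16 (limma adjusted p = 0.204), and Prg4 −0.21 ± 0.12 (limma adjusted p = 0.312). Cd44 gave 0.43 ± 0.20 (limma adjusted p = 0.213), and 0.65 or 0.22 with replicate 1 or 2 of 2 month WT left out.

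The comparison of ages asks how each gene differed between young and older discs within a genotype. In WT, between 2 and 6 months, none of the 8 genes passed (limma), as with all other genes (0%), and 3 had an unadjusted p below 0.05, against 13.3%. The arrays of 3 genes did not overlap, against 49.4%. Those with the low p were Hapln1 (−0.34 ± 0.10), Acan (−0.28 ± 0.11) and Hyal2 (−0.24 ± 0.09), with limma adjusted p between 0.291 and 0.349. The value of Acan was −0.18 with replicate 1 of 6 month WT left out. In ENT1-null, 5 genes were lower and 1 higher at 6 months (limma), and of all genes 22.2% were called, 10.2% lower and 11.9% higher. The unadjusted p was below 0.05 and the arrays did not overlap in all 8 genes, against 35.1% and 59.8% of all genes. Has2 and Hapln1 (2 of 8) fell by at least 2-fold, and 3.37% of all genes were called with that fold. The largest was Has2 (−1.21 ± 0.14), then Hapln1 (−1.07 ± 0.10), Vcan (−0.67 ± 0.10), Acan (−0.64 ± 0.11) and Has1 (−0.47 ± 0.08), with limma adjusted p between 0.00236 and 0.00815. Cd44 rose by 0.52 ± 0.14 (limma adjusted p = 0.0365). Its call ended on leaving out any 1 array of ENT1-null (0.46 to 0.57) or of 6 month WT (0.52), with no filter or all probe sets (0.52), and with quantile normalization applied again (0.46). These comparisons use the same arrays as those of genotype and are not independent of them.

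The genes that supply UDP-sugars for hyaluronan were mostly lower at 6 months. Of 12 tested genes 7 fell, 3 rose and 2 did not pass, with a median of −0.55 against −0.03 over all genes, of which 17.6% were lower and 21.2% higher. Gfpt2, which starts the hexosamine pathway toward UDP-N-acetylglucosamine, was 10.83 and 10.84 in 6 month WT and 9.64 and 9.42 in 6 month ENT1-null. It fell by 1.31 ± 0.10 (limma adjusted p = 0.000383), a 2.48-fold decrease. Uap1, which makes UDP-N-acetylglucosamine in the last step, fell by 1.00 ± 0.10 (limma adjusted p = 0.000503).

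The other steps were named after their values were seen. Gfpt1 (−0.71 ± 0.09), Gnpnat1 (−0.76 ± 0.13) and Pgm3 (−0.53 ± 0.11) of the hexosamine pathway fell, as did Ugp2 (−0.57 ± 0.10), which makes UDP-glucose, and Ugdh (−0.67 ± 0.10), which oxidizes it to UDP-glucuronic acid. Their limma adjusted p lay between 0.00103 and 0.00781, and the call of Pgm3 was lost on dropping replicate 2 of 6 month WT (−0.48). Gnpda1, an enzyme that runs the first hexosamine step backwards, rose by 1.24 ± 0.11 (limma adjusted p = 0.000427), and Hk1 (0.70 ± 0.10) and Pgm2 (0.65 ± 0.08) rose as well. At 2 months none of the 12 passed (median −0.16), of which Uap1 gave −0.49 ± 0.10 (limma adjusted p = 0.0654).

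**Figure D4:**
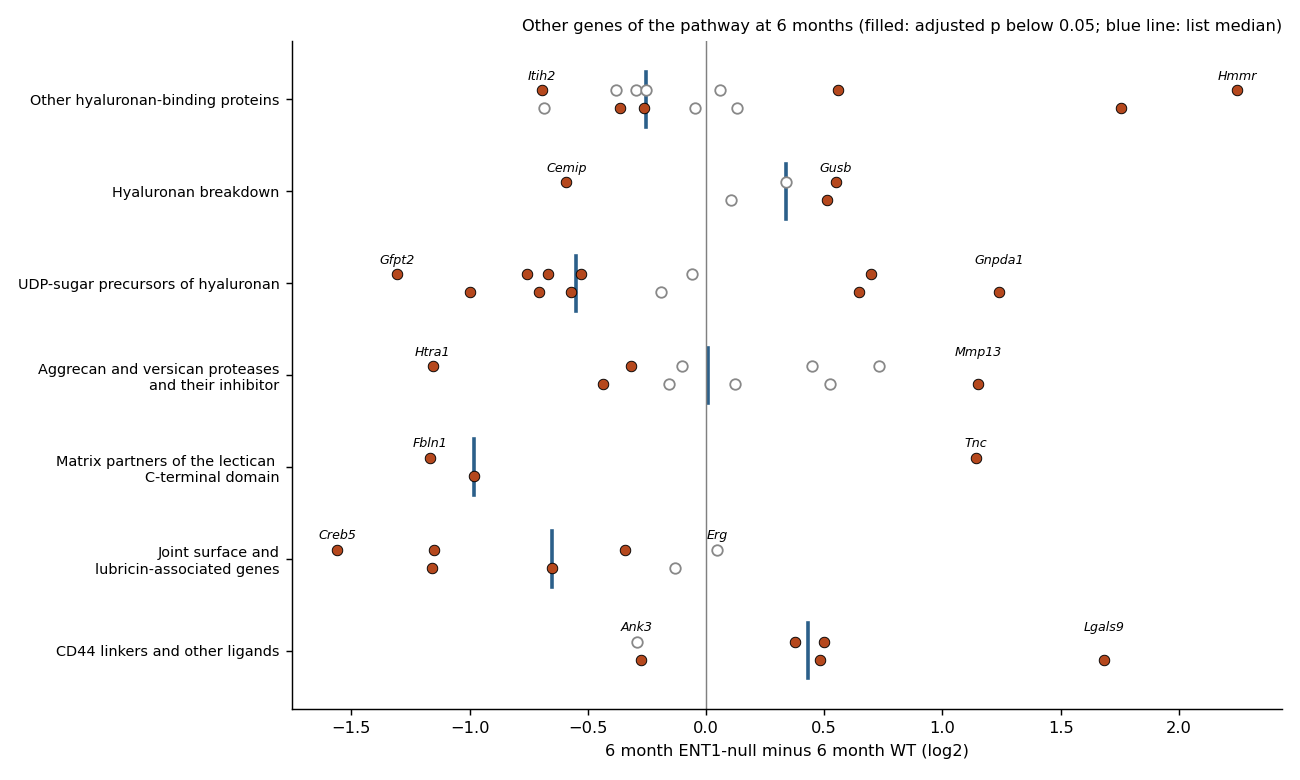
Difference between 6 month ENT1-null and 6 month WT (log2, horizontal axis) of the tested genes of 7 lists around hyaluronan, aggrecan, CD44 and lubricin; each point is a gene, filled where the adjusted p was below 0.05, a blue line marks each list's median, and the lowest and highest genes are named. The UDP-sugar list has its median at −0.55 with Gfpt2 at −1.31 and Gnpda1 at 1.24, and the CD44 list has its median at 0.43.

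Among other hyaluronan-binding proteins 3 of 13 rose, 3 fell and 7 did not pass (median −0.25), shares near those of all genes (38.8% called, 21.2% higher and 17.6% lower). Hmmr, a hyaluronan-binding protein of the mitotic spindle that peaks in dividing cells, rose by 2.25 ± 0.20 (limma adjusted p = 0.000427), from 6.47 and 5.80 to 8.27 and 8.49. Its WT means, 5.86 at 2 and 6.13 at 6 months, lay under the filter level of 6.21, so that Hmmr was tested only through its ENT1-null arrays and the size of its rise is uncertain. Stab2, the scavenger receptor of sinusoidal endothelium that clears hyaluronan, rose by 1.75 ± 0.16 (limma adjusted p = 0.000427), from 6.41 and 6.23 to 7.85 and 8.31. The WT means of Stab2, 6.18 at 2 and 6.32 at 6 months, lay close to the filter level. The size of its rise is therefore uncertain too. Itih2, a heavy chain that is bonded onto hyaluronan, fell by 0.69 ± 0.10 (limma adjusted p = 0.00159). At 2 months none of the 13 passed (median −0.02).

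Of 5 tested genes of hyaluronan breakdown 2 rose, 1 fell and 2 did not pass at 6 months (median 0.34), and none passed at 2 months. Over all genes tested, 21.2% were called higher and 17.6% lower at 6 months. The lysosomal enzymes Gusb (0.55 ± 0.11, limma adjusted p = 0.00607) and Hexa (0.51 ± 0.14, limma adjusted p = 0.0225) rose. Cemip, a secreted protein needed to cut hyaluronan outside the cell, fell by 0.59 ± 0.15 (limma adjusted p = 0.0198). The call of Hexa was lost on dropping either array of 6 month WT (0.55 and 0.47) or replicate 1 of 6 month ENT1-null (0.35). That of Cemip was lost on dropping either array of 6 month WT (−0.56 and −0.62) or replicate 2 of 6 month ENT1-null (−0.40).

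Of 10 tested proteases of aggrecan and versican with their inhibitor, 1 rose, 3 fell and 6 did not pass at 6 months (median 0.01), a share called near the 38.8% of all genes. The aggrecanases Adamts4 (−0.10 ± 0.09, limma adjusted p = 0.384) and Adamts5 (−0.16 ± 0.16, limma adjusted p = 0.481), named after their values were seen, did not pass. Mmp13, a collagenase of hypertrophic cartilage and bone, rose by 1.15 ± 0.26 (limma adjusted p = 0.0103), and Htra1, a secreted serine protease, fell by 1.16 ± 0.26 (limma adjusted p = 0.0103). Adamts1 fell by 0.43 ± 0.12 (limma adjusted p = 0.021). Without replicate 2 of 6 month ENT1-null (10.42 and 9.47 on the 2 arrays of that group) the difference of Htra1 was −0.68. The call of Mmp13 was lost on dropping replicate 2 of 6 month WT (1.12) or replicate 1 of 6 month ENT1-null (0.89), and that of Adamts1 on dropping replicate 2 of 6 month WT (−0.34) or of 6 month ENT1-null (−0.31). At 2 months none of the 10 passed (median 0.25).

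The C-terminal domains of aggrecan and versican bind other matrix proteins. Fbln1 (−1.17 ± 0.09, limma adjusted p = 0.000383) and Fbln2 (−0.98 ± 0.09, limma adjusted p = 0.000427), the genes of 2 fibulins, fell at 6 months. Tnc, tenascin C, rose by 1.14 ± 0.32 (limma adjusted p = 0.0265). The call of Tnc was lost with the trended robust fit (1.14) and on dropping any 1 of the 6 month arrays (1.06 to 1.22). These were the 3 tested genes of the list (median −0.98), and none of the 3 passed at 2 months. At 6 months 38.8% of all genes tested were called.

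Of 7 genes of the joint surface or associated with lubricin, 5 fell and 2 did not pass at 6 months (median −0.65), beside the smaller fall of Prg4. Over all genes tested, 17.6% were called lower and 21.2% higher. Creb5, a transcription factor needed for lubricin expression in the surface zone of joint cartilage, was 11.19 and 11.06 in 6 month WT and 9.51 and 9.62 in 6 month ENT1-null. It fell by 1.56 ± 0.18 (limma adjusted p = 0.000761), a 2.95-fold decrease. Cilp, a cartilage intermediate layer protein, fell by 1.16 ± 0.13 (limma adjusted p = 0.000689) and Abi3bp by 1.15 ± 0.11 (limma adjusted p = 0.000435). None of the 7 passed at 2 months (median −0.20), where Creb5 gave −0.25 ± 0.18 (limma adjusted p = 0.499).

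Of 6 linkers and other ligands of CD44, 4 rose, 1 fell and 1 did not pass at 6 months (median 0.43). Over all genes tested, 21.2% were called higher and 17.6% lower. Spp1, also on that list, was not measured. Lgals9, galectin 9, rose by 1.68 ± 0.23 (limma adjusted p = 0.00119), Msn, which ties CD44 to actin, by 0.48 ± 0.11 (limma adjusted p = 0.0121), and Srgn, the proteoglycan of white blood cell granules, by 0.38 ± 0.09 (limma adjusted p = 0.0152). The call of Msn was lost when its probe sets were averaged (0.17) and on dropping replicate 2 of 6 month WT (0.47) or replicate 1 of 6 month ENT1-null (0.40). That of Srgn was lost on dropping either array of 6 month WT (0.38 and 0.37) or replicate 2 of 6 month ENT1-null (0.33). None of the 6 passed at 2 months (median 0.13). The blood cell markers given beside Cd44 rose on the same arrays, and their part in these rises was not tested.

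The genes most like each member in level over the 8 arrays were taken by Pearson r, as a description of arrays that share 4 groups. For Acan these were Syt8, Kdelr2 and Epb41l1 (r of 0.997, 0.996 and 0.995), and for Hapln1 they were Tmem117, Arpin and Eri3 (0.998, 0.997 and 0.997). For Vcan they were Tbc1d32, Fbln1 and Cavin1 (0.993, 0.992 and 0.992). For Has2 they were Tspyl2, Cand2 and Hif1a (0.989, 0.989 and 0.988) and for Has1 Radil, Ccdc149 and Hs3st1 (0.998, 0.995 and 0.994). For Cd44 they were Nfam1, E2f3 and Rasa3 (0.998, 0.997 and 0.997), for Prg4 Smurf2, Cpq and Ppil6 (0.996, 0.993 and 0.993), and for Hyal2 Tmem161a, Dtx2 and Vps41 (0.988, 0.987 and 0.982).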

How the data were processed

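RNA of 8 pools was labelled from 200 ng and hybridised to Affymetrix arrays, per the labels. The authors deposited log2 values made by RMA, per the submitters' processing notes. RMA corrects background and gives all arrays 1 distribution, so that a level is relative to all other RNA on the array. The version of RMA is not given in the sources used here, nor is the genome build behind the array. Array medians lay between 6.77 and 6.82. The number of arrays limits the precision.

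Of 41345 probe sets 23521 had 1 gene symbol, 1814 several and 16010 none. Where several probe sets named 1 gene, that of highest mean was kept (22180 genes), and 15526 passed the filter. Symbols matched RefSeq by Entrez ID for 21994 genes. The means of the 4 groups were estimated by limma 3.58.1 (R 4.3.3) over all 8 arrays (4 residual degrees of freedom), with Benjamini-Hochberg adjustment over all tested genes. The fit was tested on simulated data. Genes named were the members, Slc29a1, Hapln3 as the neighbour of Acan, and Hyal3 as a related gene nearby on chromosome 9. Also named were, per list, the 3 called genes with the largest statistic at 6 months, and the 3 closest genes per member. Others were named after their values were seen. Members and lists were chosen with earlier results of these data known. Alternatives were other filters, scalings, probe set rules and fits, a looser threshold, and leaving out each array.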

Additional observations from a re-analysis of the deposited data

Results flagged for a closer look

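The interaction term of the limma fit passed in 8 of the genes named, while 4.45% of all genes tested passed. Those of the 8 outside the members were named for their large 6 month statistics. The interaction uses the same 6 month arrays, so that this choice favours a call and their number is no separate result. In Has2 the difference was −0.10 at 2 and −1.42 at 6 months, a change of −1.32 ± 0.20 (limma adjusted p = 0.0383). Hapln1 changed by −0.74 ± 0.15 (limma adjusted p = 0.0429) and Vcan by −0.64 ± 0.14 (limma adjusted p = 0.049). Among the genes around them, Creb5 changed by −1.31 ± 0.26, Gfpt2 by −0.94 ± 0.15, Abi3bp by −0.77 ± 0.15 and Fbln1 by −0.64 ± 0.13, and Gnpda1 by 0.85 ± 0.16 (limma adjusted p between 0.0383 and 0.0451). The call was kept in 7 of 16 alternatives for Gfpt2, Gnpda1, Creb5 and Abi3bp and in 6 of 16 for Fbln1. It was kept in 7 of 17 for Has2 and in 6 of 17 for Hapln1 and Vcan. With 2 arrays a group, no group was large enough to look for single arrays that stand apart.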

How the results depend on the processing

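The 6 month count, 7 of 8 genes, was 6 or 7 with each single array left out and within 1.5 times in all 18 alternatives. The count by age in ENT1-null (6) was 5 or 6 without single arrays. The 2 month count of 0 became 1 (Cd44) with replicate 2 of 2 month WT left out, and 2 at adjusted p below 0.1 (Vcan and Has1). The interaction count of 3 fell to 0 with no filter, 0 with all probe sets, 1 with the replicate block, and 0 without any single array. Both the filter and the probe set rule change how many genes are adjusted for. The replicate block changed no other count of the 8 genes. Equal replicate numbers share no stated source, so that the arrays were not paired in the fit. Deviations of same-numbered arrays correlated between −0.395 and 0.415 over the 6 pairs of groups, which cannot show whether they share a source.

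Signs turned in 10 cases, none of a called value. With quantile normalization again, Vcan by age in WT was 0.021 and the interaction of Hyal2 −0.018. The other turns came on leaving out single arrays. Has2 at 2 months then ran from −0.31 to 0.11, its value with replicate 1 of 2 month WT left out. By age in WT, Has2 ran from −0.11 to 0.32, Cd44 from −0.13 to 0.30, Prg4 from −0.053 to 0.022 and Vcan from −0.11 to 0.036. The interaction of Hyal2 ran from −0.038 to 0.088 and was also negative at −0.027 and −0.021. Of 36 called genes of the 7 lists at 6 months 21 kept their call in every alternative run and 15 lost it in at least 1.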
